A study of Mus musculus with 4 samples.

Results

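The genes described here belong to the insulin, cAMP and MAP kinase signalling pathways. They were taken by symbol from the gene column of the allele count tables: phosphoinositide 3-kinase subunits, Akt kinases, insulin and IGF receptors and their substrates, phosphodiesterases, Prk kinases, serine/threonine phosphatase subunits, adenylyl cyclases, adrenergic receptors, G protein subunits, MAP kinases and dual specificity phosphatases. Ppp1r9a was left out, and only SNPs marked exonic on chromosomes 1 to 19 were used. The rule gave 126 genes of 8016 autosomal genes in the tables, and all 126 were among the 7990 genes tested. They held 864 SNPs by the rule, of which 775 were counted after removal of neighbours that shared reads, out of 44210 counted SNPs in the series.

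RNA from the gonadal fat pad of chow-fed F1 mice of C57BL/6J (B) and DBA/2J (D) was sequenced, and reads carrying the B or the D base were counted at known SNPs. Both reciprocal crosses, named BxD and DxB, and both sexes were sampled, each as 1 pool of RNA from 3 animals or, for the pool labelled DxB female, 2 animals. The labels give an age of 8 weeks and the study's methods another age. Every animal carried both alleles in the same cells, so the B and D reads of a pool share the diet, the sex and the cell mixture.

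Insulin acts through its receptor, receptor substrates, phosphoinositide 3-kinase and Akt to drive glucose uptake and lipid storage in fat cells and to hold back lipolysis. Catecholamines act through adrenergic receptors, G proteins and adenylyl cyclase to raise cAMP, which activates protein kinase A and lipolysis, while phosphodiesterases break cAMP down. MAP kinases relay growth factor and stress signals through a cascade of kinases that phosphatases, among them the dual specificity family, switch off.

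A pair of pools went against their labels, and this was read from genes outside the signalling list. In F1 males the only X chromosome is maternal, and at 73 X-linked SNPs the pool labelled DxB female had a B share of 99.1% and the pool labelled BxD male one of 55.0%, beside 52.4% for the BxD female and 12.3% for the DxB male pool. The paternally expressed gene Sgce had a B share of 0.357% and 0.645% in the BxD female pool and the pool labelled DxB female, against 97.3% and 99.4% in the pool labelled BxD male and the DxB male pool. The file names of the 2 pools carry the swapped identity. The comparison of B with D uses neither cross nor sex and is untouched, and results by parent or sex are given under both identities. Counted reads per pool ran from 3353668 to 4254813, with 51035 to 65508 of them in the 126 signalling genes. Of 14 adipocyte markers, the 4 with a counted SNP (Car3, Cidec, Lep and Lpl) held 460264 to 635395 reads per pool. Of 4 brown or beige fat markers the 2 counted, Cidea and Ucp1, held 1811 reads in the pool labelled BxD male and 10 to 159 in the others, and 3 of 5 epididymis markers (Adam7, Lcn5 and Rnase9) held 212 reads in the DxB male pool and none elsewhere. The counted leukocyte markers (Cd3e and Cd68, of 8) held 963 to 1820 reads, Pecam1 of 4 endothelial markers 122 to 221, Wfdc2 of 5 ovary and uterus markers 2 to 28 and Myh4 of 3 muscle markers 0 to 75. The part of these cells in the results was not tested.

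A choice of SNPs from called genes is shown first, to let the strain bases behind the counts be seen, each as 29 bases of the mm9 plus strand. The reference base, which is the B base, stands in capitals at position 15, and positions are counted from 1 at the 5′ end of the window. At the first 7 sites, in 6 genes, no D read or almost none was counted. In the study's sequencing of D genomic DNA at a sample of B-only sites of the whole series, Gnaq and Adra2c among them, D mice carried the B base at each site tested. A B-only count at any site below is therefore a count of reads and not by itself a difference between alleles. The D base listed for Gnaq below was not found in D mice, and the other sites listed were not in that sample.
Mapk6, chr9:75236473-75236501, coding and nonsynonymous, T15A in D, 755 B and 0 D reads: tctcagccagctgcTgggatgcttcctct
Mapk6, chr9:75241288-75241316, coding and synonymous, G15A in D, 586 B and 0 D reads: acagggatggagtcGaggatcagctgcat
Akt1, chr12:113912346-113912374, 5′ UTR, G15T in D, 353 B and 0 D reads: tgggccgccgcggtGccggccacaggacg
Gnaq, chr19:16207503-16207531, 5′ UTR, A15G in D, 233 B and 0 D reads: gcacagccttgggcAgcgtcggcggcggc
Pde7a, chr3:19210913-19210941, coding and synonymous, T15C in D, 145 B and 0 D reads: ctgaagctgatggcTcctcggcggctgag
Mapk11, chr15:88979903-88979931, coding, listed as a gained stop codon, G15T in D, 29 B and 0 D reads: ttcagctcttgccgGtagaatcccgcgcg
Ppp2r2a, chr14:67690961-67690989, coding and nonsynonymous, T15C in D, 561 B and 1 D reads: ggctcgtcggggtcTccgcgaccggggct
At the next sites both alleles were read, except in Ppp2r5a, whose D reads came almost all from other positions listing an identical base in both strains.
Ppp1ca, chr19:4193046-4193074, coding and nonsynonymous, T15G in D, 1655 B and 18 D reads: accttctacggctgTttgagtatggtggc
Ppp2r5a, chr1:193186170-193186198, coding and nonsynonymous, G15C in D, 2482 B and 0 D reads: gggctggaaatcagGactctccaagaatc
Map3k7, chr4:32064299-32064327, coding and synonymous, A15G in D, 5 B and 169 D reads: ctccggcagttgtcAcgtgtgaaccatcc
Map3k7, chr4:32064332-32064360, coding and synonymous, T15C in D, 6 B and 188 D reads: attgtcaagttgtaTggagcctgcctgaa
Map3k7, chr4:32109976-32110004, 3′ UTR, T15C in D, 157 B and 54 D reads: atgacaagttcatgTcagccccaccatag
Adra1d, chr2:131387492-131387520, coding and synonymous, T15C in D, 104 B and 186 D reads: agcaggtcagccacTgctaggttcacgat
Ppp1r16b, chr2:158572314-158572342, coding and synonymous, C15T in D, 154 B and 334 D reads: aatgccaaggacaaCgagctgtggacgcc
Dusp23, chr1:174562862-174562890, coding and synonymous, T15C in D, 326 B and 173 D reads: tcactgtgagggggTccgcgctccgtcag

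The first comparison asked in which of these genes the 2 strain alleles differed in read number. Of the 126 genes, 28 differed at an adjusted p under 0.05 (edgeR quasi-likelihood test, 4 B against 4 D allele libraries, Benjamini-Hochberg over 7990 genes), which is 22.2% against 17.7% of all genes tested. The B allele was higher in 22 of them and the D allele in 6, where 12.9% and 4.84% of all genes tested were called in those directions. The median fitted log2 ratio of D to B was -0.01 over the 126 genes and -0.02 over all genes. Of the 28, 14 had at least 10 reads counted for both alleles, and 14 had fewer than 10 reads of one allele. The former include Ppp2r5a, where 401 of 402 D reads came from positions listing an identical base in both strains. The latter include Gnaq and Adra2c, where the study's sequencing found the B base in D mice. Raw D shares over the counted reads of a pool were 45.7% to 46.9%, and the fit scales the B and D libraries separately, so that a gene with a raw D share near 49% has a log2 ratio slightly above 0. DESeq2 called the same 28 genes. The 6 calls with D higher fell to 3 without the pool labelled DxB female or without the DxB male pool. Over all genes calls with D higher fell from 387 to 233 and 222 in these fits. With 1 library size per pool for both alleles the median over all genes moved to -0.15 and 29 genes were called, 24 with B higher and 5 with D higher, against 18.4% of all genes. With the pool as a block, so that alleles of the same animals are paired, 38 of the 126 genes were called against 27.2% of all genes, 26 with B higher and 12 with D higher. Without the block, p-values and SEs take in the spread of each allele's reads between these 4 pools of animals. They thus hold the spread of a gene's total reads and do not measure that of its D share alone. In Adrb3 the D share had an SD of 1.42 percentage points between pools, while the SE of the log2 ratio was 0.38.

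**Figure D1:**
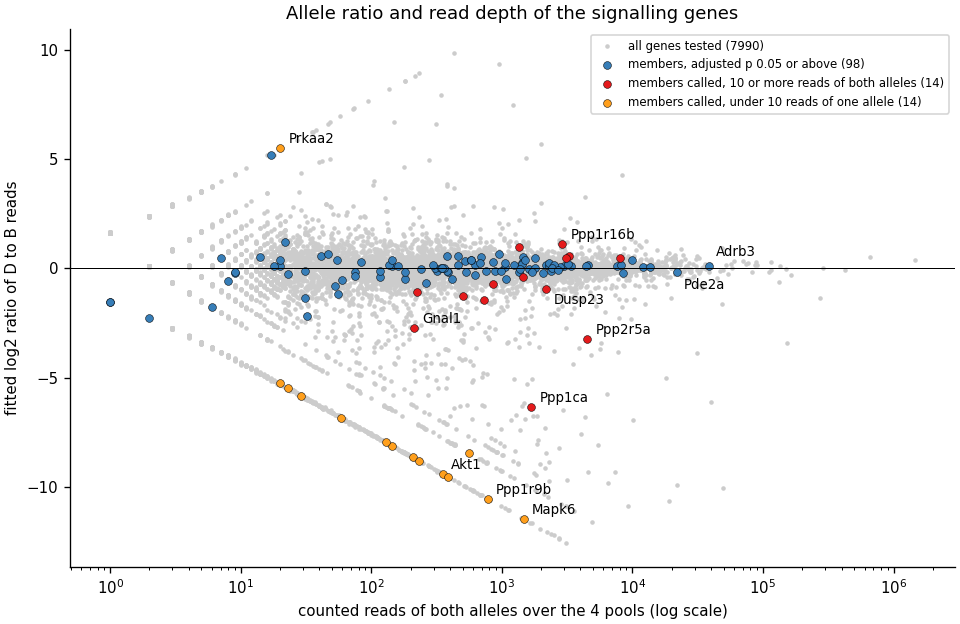
Fitted log2 ratio of D to B reads (y axis) against counted reads of both alleles over the 4 pools (x axis, log scale) for 7990 genes (grey) and the 126 signalling genes (coloured by call). The 14 genes called with under 10 reads of one allele follow the lower or upper edge of the cloud, while Adrb3, the gene with most reads, sits at 0.10.

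Receptors and the first steps of insulin signalling had 1 call among 13 tested genes, Akt1, with the B allele higher. For this and each family count below, 17.7% of all genes tested were called, 12.9% with B and 4.84% with D higher. Akt1, the kinase at the centre of insulin and growth factor signalling (chr12:113892032-113913095), was counted at a single 5′ UTR SNP with 99, 110, 66 and 78 B reads and 0 D reads in the BxD female pool, the pool labelled DxB female, the pool labelled BxD male and the DxB male pool. All values per pool below keep that order. The missing D reads allow a D share of up to 0.850% and B reads at least 118-fold more, on a floor of 3 reads over the 4 pools. Intervals and floors cover counting error only.

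Pik3r4 and the genes after it, Pik3c2g apart, had reads of both alleles. Pik3r4, the regulatory subunit of the class III lipid kinase Vps34, was the most deeply covered with 33 SNPs, and its B reads were 1169, 1041, 1023 and 815 against 1172, 1027, 1058 and 856 D reads. The D share lay between 49.7% and 51.2% in the pools, and its log2 ratio of 0.15 ± 0.09 (SE) did not pass the test (adjusted p = 0.322), though it did with the pool as a block. Pik3r2, a regulatory subunit of the class I kinase, gave a log2 ratio of 0.15 and Akt1s1, the Akt substrate of the mTOR complex, 0.17. Pik3ca, the catalytic subunit, had 33, 36, 30 and 27 B reads and 36, 20, 36 and 22 D reads at 1 SNP, and the pools lay on both sides of an equal share (log2 ratio -0.03 ± 0.23, adjusted p = 0.972). Igf1r, the receptor for insulin-like growth factor, had 75 reads at 1 SNP and D shares of 37.9%, 52.9%, 18.2% and 50%, too few to separate the alleles (log2 ratio -0.35 ± 0.47). Pik3ap1, an adaptor of immune cells, had 53, 46, 30 and 40 B reads and 29, 20, 21 and 25 D reads, fewer D reads in each pool, and an adjusted p of 0.0742, or 0.0233 with the pool as a block. Pik3c2g was read from the D allele alone, with 0, 11, 5 and 1 D reads over 13 SNPs, and its adjusted p was 0.0728.

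Of 28 core pathway genes listed by name, 17 had no counted exonic SNP and so give no allele ratio here, among them Insr, Irs1, Irs2, Akt2, Pik3r1, Pde4b, Prkar2b, Prkaa1, Gnas, Gnai2, Mapk3, Mapk14, Dusp1, Ppp2ca and Ppp1r3c.

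Among adrenergic receptors and their kinases 2 of 9 tested genes were called, 1 in each direction. Adra1d, an alpha-1 receptor that couples to phospholipase C (chr2:131371586-131388021), had 136, 108, 146 and 101 B reads and 208, 172, 268 and 215 D reads. The D share was 60.5%, 61.4%, 64.7% and 68.0%, above 50% in each pool, with a mean of 63.7% ± 3.4 (SD, n = 4). Its log2 ratio was 0.96 ± 0.18 (adjusted p = 0.00239), a D allele 1.94-fold higher, and 8 of its 9 SNPs had more D than B reads. Of the 9, 3 lay past the 3′ end of the gene in GENCODE and 2 in an overlap with the gene Gm14285, whose reads cannot be told from its own. Adra2c, an alpha-2 receptor that inhibits adenylyl cyclase, was counted at 1 SNP and had 9, 5, 5 and 1 B reads without any D read (adjusted p = 0.0143). The study sequenced this SNP in D mice and found the B base, so the Adra2c count gives no allele ratio. The call was also lost with the pool as a block (adjusted p = 0.069), and without the BxD female pool, the pool labelled DxB female or the pool labelled BxD male (adjusted p from 0.0615 to 0.0717).

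Adrb3, the receptor that drives lipolysis in mouse white fat and heat production in brown fat, had more reads than any other gene of the list. Its 14 SNPs held 3133 and 2851, 7198 and 7206, 3473 and 3607, and 5836 and 5600 B and D reads, D shares of 47.6%, 50%, 50.9% and 49%. The pools lay on both sides of an equal share, the log2 ratio was 0.10 ± 0.38, and neither the gene (adjusted p = 0.915) nor any of its SNPs passed the test. Single SNPs ranged from a D share of 37.2% to one of 57.0%. Adrb1 (39 B and 44 D reads), Adra2a (5 and 3), Adra1b (10 and 10) and Adra1a (412 and 342) had reads of both alleles and adjusted p from 0.798 to 0.954. Adra2b had 40 B and 16 D reads over 15 SNPs (log2 ratio -1.18, adjusted p = 0.18) and was called only with the pool as a block (adjusted p = 0.0454).

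The total of both alleles of Adrb3 differed between pools. Scaled to 1000000 counted reads of a pool it was 1406, 3465, 1722 and 3410, so the pool labelled DxB female and the DxB male pool lay above the others. Those are the DxB pools by the labels and the male pools by the file names, and the X-linked and Sgce shares above went with the file names. Ppp2r1b, a scaffold subunit of phosphatase 2A, split the pools the same way with 467, 788, 504 and 759 scaled reads, and Pde3b followed with 373, 646, 359 and 540 but under a 1.5-fold gap. Of 94 members with at least 100 reads, 2 (Adrb3 and Ppp2r1b) were at least 1.5-fold higher in both of those pools than in both others and 0 were lower, where 1.47% and 2.50% of 5114 genes were. The smallest exact permutation p with 2 pools a side is 0.333, so these are values without a test. Fewer cells of a type and less RNA per cell cannot be told apart in bulk tissue, and the part of the marker differences above was not tested.

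**Figure D2:**
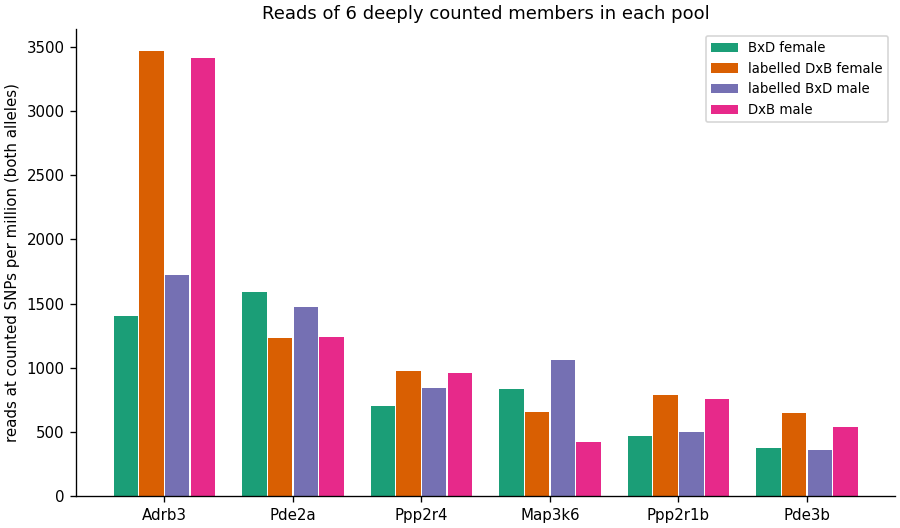
Reads of both alleles at counted SNPs per 1000000 counted reads of the pool (bars, y axis from 0) for 6 deeply counted genes. Adrb3 and Ppp2r1b are higher in the pool labelled DxB female and the DxB male pool than in the other pools, and Pde2a, with 1233 to 1592, is not.

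Among 8 tested genes with a G protein subunit symbol 2 were called, both with more B reads. These were Gnaq and the gene listed as Gnal1, and each call has a limit given here. Gnaq, the alpha subunit that links receptors to phospholipase C, was counted at a 5′ UTR SNP where 69, 64, 43 and 57 reads carried B and none D. The study sequenced this SNP in D mice and found the B base, so the Gnaq count gives no allele ratio. The gene listed as Gnal1 had 55, 35, 48 and 48 B reads and 4, 3, 10 and 8 D reads (log2 ratio -2.73 ± 0.38, adjusted p = 0.000268). Its SNPs lie in Gnl1, a GTP-binding protein gene that is no G protein alpha subunit, and its nonsynonymous SNP had 142 B and 2 D reads where its 3′ UTR SNP had 44 and 23. Gnb4, a beta subunit, was counted at 7 SNPs with 1704 B and 1679 D reads and was not called (log2 ratio 0.09). Gnb5, another beta subunit, had D shares of 40.2%, 37.0%, 40.4% and 40.0% and was called only with the pool as a block (log2 ratio -0.49, adjusted p = 0.00358).

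None of 7 genes in the adenylyl cyclase list was called in the exon test. Adcy7 and Adcy6, enzymes that make cAMP, had 2257 and 1516 B reads and 2278 and 1483 D reads, and their log2 ratios were 0.14 ± 0.22 and 0.09 ± 0.19. Adcyap1r1, the receptor for the peptide PACAP, was taken by its symbol and is no cyclase itself. It had D shares of 60.6%, 62.2%, 50% and 51% (log2 ratio 0.50, adjusted p = 0.169).

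Among 11 genes with a Pde symbol, of which Pde4dip is a scaffold that binds a phosphodiesterase and no enzyme, 2 were called, Pde7a and Pde10a, both read from the B allele alone. Pde7a, a cAMP-specific enzyme, had 35, 25, 50 and 35 B reads but 0 D reads at a synonymous SNP, while its introns held 156 B and 159 D reads at 39 SNPs. Pde10a had 7, 6, 6 and 4 B reads and none from D, and its call was lost with the pool as a block (adjusted p = 0.058). Pde2a, an enzyme stimulated by cGMP and the second most deeply read gene of the list, had 3700, 2846, 3279 and 2388 B reads and 3074, 2278, 2779 and 1780 D reads. Its D share of 44.6% ± 1.4 (SD, n = 4) lay below 50% in all pools and in 13 of its 14 SNPs. The log2 ratio of -0.18 ± 0.12 was not called (adjusted p = 0.387), and it was called with the pool as a block (adjusted p = 0.0164). Pde3b, the enzyme through which insulin lowers cAMP in fat cells, had 811, 1344, 742 and 928 B reads and 778, 1341, 735 and 882 D reads. Its D share was 49.3% ± 0.594 (SD, n = 4) and on 1 side of 50% in all pools, with a log2 ratio of 0.09 ± 0.25.

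The Prk symbols cover protein kinases A, C and D and the AMP-activated kinase, and also Prkcbp1 and Prkrir, which are no subunits of these kinases. Of the 13, 2 were called, both with the D allele higher. Prkd3, a protein kinase D, had 478, 315, 335 and 243 B reads and 585, 403, 415 and 318 D reads, D shares of 55.0%, 56.1%, 55.3% and 56.7%. The D allele was higher in every pool, 1.37-fold (log2 ratio 0.46 ± 0.14, adjusted p = 0.0405). That call is near the threshold: it was lost without the pool labelled DxB female, the pool labelled BxD male or the DxB male pool (adjusted p from 0.129 to 0.151), with SNPs at least 50 bp apart and with 1 library size per pool. Prkaa2, a catalytic subunit of the AMP-activated kinase, had 1, 9, 2 and 8 D reads at 1 SNP and no read of B. Its call (adjusted p = 0.0277) was lost with the pool as a block (adjusted p = 0.0625) and without the pool labelled DxB female, the pool labelled BxD male or the DxB male pool (adjusted p from 0.0593 to 0.12). Prkaca, the main catalytic subunit of protein kinase A, had a D share of 45.0% ± 1.1 (SD, n = 4) and was not called, but its synonymous SNP held 9 B and 58 D reads while its 3′ UTR SNPs held 741 and 553. Prkacb gave a log2 ratio of 0.25, Prkar1a, the regulatory subunit, 0.17 and Prkag2, a regulatory subunit of the AMP-activated kinase, 0.38 (adjusted p = 0.0744, or 0.0233 with the pool as a block).

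Of 23 genes of the MAP kinase cascade 6 were called, 4 with the B allele and 2 with the D allele higher. Mapk6, an atypical MAP kinase also known as Erk3, had 335, 364, 437 and 338 B reads and none from D. Its 3 SNPs lie in 3 exons and held 755, 586 and 133 B reads, so B reads were at least 491-fold more. Its introns held 17 B and 26 D reads at 8 SNPs. Mapk11, a p38 kinase, had 6, 8, 8 and 7 B reads and none from D at the SNP that is listed as a gained stop codon.

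Map3k7, the kinase Tak1 that relays TGF-beta and inflammatory signals (chr4:32051072-32110442), was called with the D allele higher but its SNPs pointed both ways. The gene totals were 445, 383, 301 and 253 B reads and 565, 529, 442 and 343 D reads, with D shares of 55.9%, 58.0%, 59.5% and 57.6% (log2 ratio 0.57 ± 0.12, adjusted p = 0.00638). Among its 23 SNPs 7 were called with D higher and 4 with B higher. The 5′ UTR SNPs held 40 B reads and 0 D reads, the coding SNPs 97 B and 534 D reads and the 3′ UTR SNPs 1245 B and 1345 D reads. Within the coding exons, the SNPs at chr4:32064313 and chr4:32064346 held 5 B and 169 D and 6 B and 188 D reads, while that at chr4:32068550 held 56 B and 3 D reads. This split stood in all 4 pools: the first of these SNPs had 44, 48, 43 and 34 D reads against 3, 0, 1 and 1 B reads, and the last had 15, 19, 9 and 13 B reads against 0, 2, 1 and 0 D reads. The SNPs at chr4:32064313 and chr4:32064346 lie within a read length of each other and can share reads. Its 140 intronic SNPs held 550 B and 424 D reads and were not called (log2 ratio -0.21, adjusted p = 0.582).

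**Figure D3:**
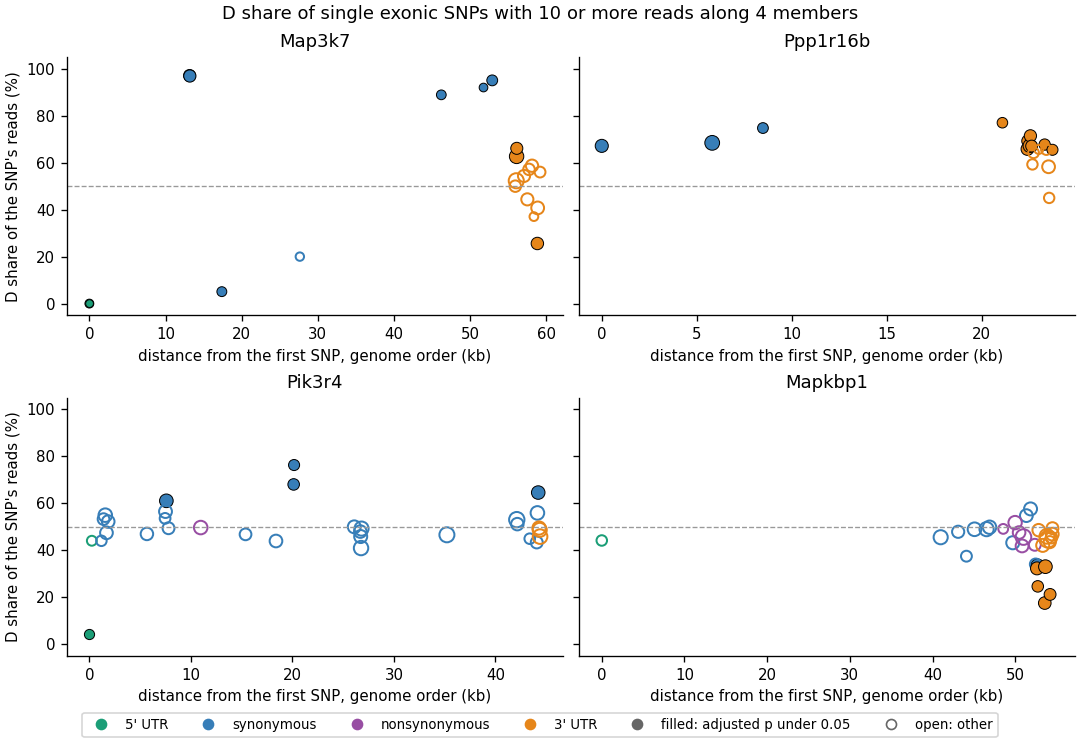
D share of single exonic SNPs with at least 10 reads (y axis, percent) against distance from the gene's first SNP in genome order (x axis, kb) in Map3k7, Ppp1r16b, Pik3r4 and Mapkbp1. Points are coloured by SNP class, sized by reads and filled where the adjusted p was under 0.05. Map3k7 runs from 0% in the 5′ UTR to 97.1% at a coding SNP, whereas 17 of the 19 SNPs of Ppp1r16b had more D than B reads.

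Mapk8ip3, a scaffold of the JNK kinases, had 1007, 911, 987 and 667 B reads and 1249, 1099, 1199 and 908 D reads. The D share of 55.6% ± 1.4 (SD, n = 4) was above 50% in each pool (log2 ratio 0.45 ± 0.10, adjusted p = 0.00771), and the call was lost without the pool labelled DxB female or the DxB male pool (adjusted p = 0.0546 and 0.0622). Map3k5, the stress kinase Ask1, had 233, 258, 208 and 165 B reads and 168, 170, 146 and 110 D reads, a D share of 40.7% ± 1.0 (SD, n = 4). The log2 ratio was -0.41 ± 0.12 (adjusted p = 0.036), and the call was lost on leaving out any 1 pool (adjusted p from 0.0823 to 0.127). Its first SNP held 172 B reads and 1 D read and its other 4 SNPs had D shares from 41.2% to 56.4%. Without SNPs that had under 1% of reads from one allele its log2 ratio was -0.13 (adjusted p = 0.663).

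Mapk1ip1l had 129, 109, 179 and 125 B reads and 83, 70, 89 and 65 D reads (log2 ratio -0.70 ± 0.19, adjusted p = 0.0213). Of its 3 SNPs 1 held 160 B reads and 0 D reads, 1 lists an identical base in B and D and counted 46 reads for each, and 1 held 336 and 261. Without the first SNP the ratio fell to -0.23 (adjusted p = 0.649), and the call was lost without the pool labelled BxD male or the DxB male pool (adjusted p = 0.0588 and 0.123).

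Not called were Map3k6, a stress kinase with 12067 reads over 25 SNPs (log2 ratio 0.07 ± 0.30) and D shares of 50.7%, 48.9%, 49.3% and 44.9%, and Map2k1, the kinase Mek1 of the growth factor cascade. Map2k1 had D shares of 44.3%, 45.3%, 44.8% and 41.2% (log2 ratio -0.22 ± 0.11, adjusted p = 0.212) and was called with the pool as a block (adjusted p = 0.0461) and with 1 library size per pool. Mapkbp1, which binds MAP kinases, had 6 SNPs called with B higher among 31, of which 5 were in the 3′ UTR. All 6 lie where Gm13999 overlaps it, so the reads of the 2 genes cannot be told apart there, and Mapkbp1 as a whole gave a log2 ratio of -0.24 (adjusted p = 0.316).

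Dual specificity phosphatases, which remove phosphates from MAP kinases and other proteins, gave 2 calls among 15 genes, both with the B allele higher. Dusp23 (chr1:174560900-174563105) had 436, 307, 433 and 296 B reads and 235, 125, 203 and 137 D reads. Its D share was 35.0%, 28.9%, 31.9% and 31.6%, below 50% in each pool, and the B allele was 1.93-fold higher (log2 ratio -0.95 ± 0.17, adjusted p = 0.00202). All 8 of its SNPs, in the coding exons and the 3′ UTR, had more B than D reads, from a D share of 25.4% to one of 36.2%. Dusp28 was read at 2 SNPs 56, 45, 72 and 36 times from B and 0 times from D, B reads at least 69.7-fold more. Dusp6, a MAP kinase phosphatase, had 73, 45, 49 and 29 B reads and 79, 62, 59 and 62 D reads at 1 SNP. The D allele was higher in 4 of 4 pools, but the log2 ratio of 0.58 ± 0.20 missed the threshold (adjusted p = 0.0758). Dusp4 (2213 B and 2173 D reads) and Dusp16 (685 and 747) had log2 ratios of 0.09 and 0.24.

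Serine/threonine phosphatase subunits held 11 of the 28 calls among 27 tested genes, 10 with the B allele higher and 1 with the D allele higher. That is 40.7%, where 17.7% of all genes tested were called, 12.9% with B higher. Of the 10, 5 had fewer than 10 D reads: Ppp1r9b, Ppp2r2d, Ppp2r2a, Ppp1r2 and Ppp1r10. Ppp1r16b, a targeting subunit of phosphatase 1 found in endothelial cells (chr2:158491134-158592070), was the exception with 297, 254, 236 and 187 B reads and 585, 509, 443 and 397 D reads. Its D share was 66.3%, 66.7%, 65.2% and 68.0%, and the D allele was 2.18-fold higher (log2 ratio 1.12 ± 0.10, adjusted p = 7.51e-06). Both classes of SNP leaned the same way, with 268 B and 590 D reads in coding exons and 706 B and 1344 D reads in the 3′ UTR. Its 90 intronic SNPs held 133 B and 136 D reads.

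Ppp1ca, a catalytic subunit of phosphatase 1 (chr19:4192158-4195419), had 413, 416, 458 and 368 B reads and 4, 6, 2 and 6 D reads at a single nonsynonymous SNP. The D share was 1.11% ± 0.523 (SD, n = 4), with a log2 ratio of -6.36 ± 0.24 (adjusted p = 5.4e-09). Over the pools together this SNP had a D share of 1.08%, just above the 1% limit used to drop nearly missing alleles. The study did not list it among the sites sequenced in D mice, and whether its D base is right was not tested. Ppp1r1a, inhibitor 1 of phosphatase 1, which protein kinase A activates, had 97, 146, 194 and 110 B reads and 45, 41, 70 and 28 D reads. Its D share was 31.7%, 21.9%, 26.5% and 20.3%, the B allele was 2.76-fold higher (log2 ratio -1.46 ± 0.28, adjusted p = 0.00285), and both of its SNPs had fewer D reads, 174 against 517 B reads in the 5′ UTR and 10 against 30 in the 3′ UTR.

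Phosphatase 2A subunits gave 4 further calls. Ppp2r5a, a regulatory B56 subunit, had 815, 1384, 880 and 1004 B reads and 65, 122, 121 and 94 D reads (log2 ratio -3.22 ± 0.28, adjusted p = 4.58e-06). Of its 402 D reads 401 came from 3 positions listing an identical base in B and D, where each read is counted for both. The other 7 SNPs held 3682 B reads and 1 D read, and without the 3 positions the log2 ratio was -11.18 (adjusted p = 6.59e-09). Its intronic SNPs held 73 B and 76 D reads. Ppp2r5e, another B56 subunit, had 116, 94, 82 and 74 B reads and 50, 44, 28 and 19 D reads (log2 ratio -1.27 ± 0.22, adjusted p = 0.00122). A pair of 5′ UTR SNPs in it held 83 and 135 B reads with 1 D read each, and the 3′ UTR SNP held 148 and 139, so the call was lost without SNPs under 1% (log2 ratio -0.63, adjusted p = 0.169). Ppp2r2a had 147, 149, 134 and 131 B reads and 0, 1, 0 and 0 D reads at 1 SNP, a ratio of 561 with an exact 95% interval from 100 to 22197. Ppp2r2d, like Ppp2r2a a regulatory B subunit, had 105, 90, 120 and 73 B reads and none from D, B reads at least 129-fold more.

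Ppp1r9b, the spine protein spinophilin that targets phosphatase 1, was read 212, 152, 246 and 167 times from B and 0 times from D. A position 3 bases away, left out as a close neighbour, has an identical base listed in B and D and counted 716 reads for each. Ppp4r2, a regulatory subunit of phosphatase 4, had 49, 49, 33 and 27 B reads and 15, 15, 12 and 24 D reads (log2 ratio -1.07 ± 0.31, adjusted p = 0.0329). Its nonsynonymous SNP held 128 B and 28 D reads and its 3′ UTR SNP 30 and 38. The call was lost without the BxD female pool, the pool labelled DxB female or the pool labelled BxD male (adjusted p from 0.104 to 0.179). The most deeply read subunits were not called: Ppp2r4, an activator of phosphatase 2A (13750 reads, log2 ratio 0.08 ± 0.17), and Ppp2r1b (9880 reads, log2 ratio 0.37 ± 0.25). Ppp2r1b had D shares of 53.5%, 53.4%, 55.5% and 54.2% and was called with the pool as a block (adjusted p = 0.00115).

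**Figure D4:**
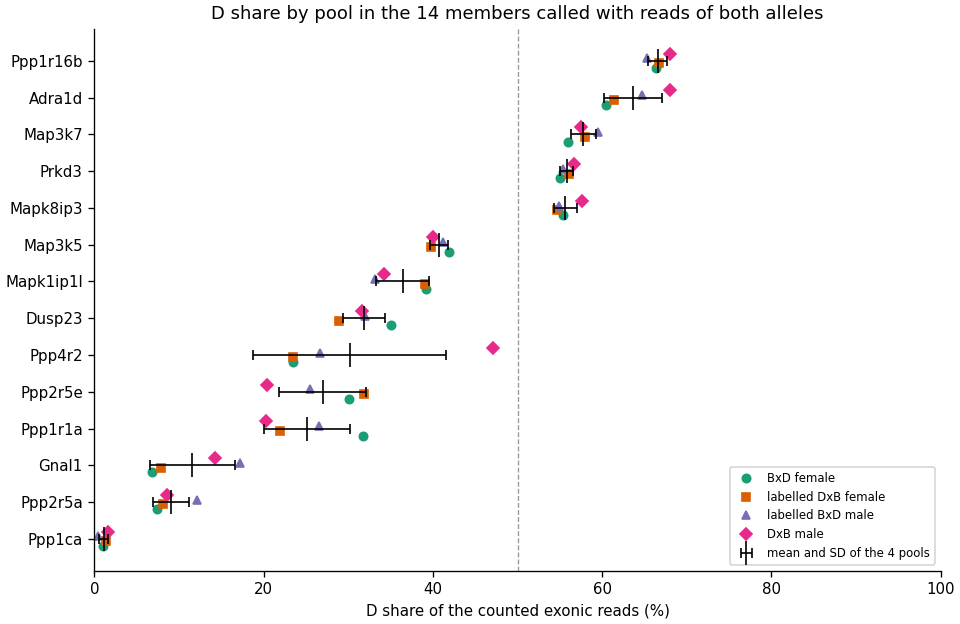
D share of counted exonic reads (x axis, percent) in each of the 4 pools (symbols), with mean and SD (black), for the 14 called genes that had at least 10 reads of both alleles. All pools of a gene lie on the same side of 50%, from 0.435% in Ppp1ca to 68.0% in Adra1d and Ppp1r16b, and Ppp4r2 has the widest spread. Nearly all D reads of Ppp2r5a came from positions listing an identical base in both strains.

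The spread between pools was small where depth was high. Over the 46 genes with at least 1000 reads the median SD of the D share between the 4 pools was 2.17 percentage points. Of the 98 genes that were not called, 36 had at least 1000 reads, and their log2 ratios lay between -0.48 and 0.50. In contrast 11 of the 126 genes had fewer than 20 reads, and none of them was called. The lowest adjusted p among them was that of Pik3c2g, at 0.0728.

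Single SNPs were tested to see whether the SNPs of a gene leaned the same way. Of 775 SNPs in the signalling genes 97 were called at an adjusted p under 0.05 (edgeR over 44193 SNPs), against 12.1% of all SNPs tested. They lay in 45 genes, 56 with B higher and 41 with D higher, where 8.51% and 3.63% of all SNPs were called in those directions. With the pool as a block 120 were called, against 14.2%. Of these 97, 26 had no D read and 2 no B read. Only Map3k7 and Pik3r4 held called SNPs in both directions. In Pik3r4 the first 5′ UTR SNP held 68 B and 3 D reads, and 4 coding SNPs were called with D higher, with 130 B and 204 D, 46 and 98, 27 and 87, and 114 and 208 reads.

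SNPs with no D read were unevenly spread over the classes of SNP. Among SNPs with at least 20 reads, 25 of 621 in the signalling genes (4.03%) had no D read, against 3.58% of 29872 in all genes. By class the share was 14.6% of 41 in 5′ UTRs, 13.7% of 51 nonsynonymous, 1.56% of 256 synonymous and 1.53% of 262 in 3′ UTRs. All genes gave 12%, 6.89%, 1.73% and 2.60%. SNPs in the exon column that the annotation calls intronic gave 3 of 10 (30%) against 3.97%, and 2 of those 3 lie in Ppp2r5a. The opposite case, no B read, was 1 of the 621 SNPs. Without SNPs that lack one allele in all pools, 109 of the 126 genes could be tested and 12 of them were called, 8 with B higher and 4 with D higher, against 12.2% of all genes. Without SNPs that had under 1% of reads from one allele, 8 of 108 were called, 4 in each direction, against 9.31%.

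Intronic SNPs offered reads of the same genes that the choice of genes did not use, from the same pools. Of 104 signalling genes with an intronic read, 9 were called (edgeR over 9253 genes), against 10.2% of all genes. The B allele was higher in 5 (6.26% of all genes) and the D allele in 4 (3.93%). With the pool as a block 7 were called, against 7.89%. Map3k5, Mapk1ip1l and Prkd3 were called in exons and introns, each in the same direction. Prkd3 introns had 86, 46, 67 and 33 B reads and 144, 85, 101 and 65 D reads (log2 ratio 0.90 ± 0.20, adjusted p = 0.000155). Map3k5 introns had 211, 190, 189 and 89 B reads and 137, 112, 85 and 83 D reads (log2 ratio -0.56 ± 0.18, adjusted p = 0.0241), a call lost with the pool as a block (adjusted p = 0.0728) and without the pool labelled DxB female or the pool labelled BxD male. Mapk1ip1l introns had only 30 B and 4 D reads (log2 ratio -2.66), and the call was lost with the block (adjusted p = 0.0715) and without the BxD female pool or the DxB male pool.

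The other 6 intron calls fell in genes whose exons were not called. Prkcc, protein kinase C gamma, had 31, 31, 27 and 22 B reads and 75, 79, 94 and 38 D reads in introns, a D share of 72.0% (log2 ratio 1.47 ± 0.23, adjusted p = 6.92e-09). The D reads were more in every pool, 1 SNP gave 73 of them with no B read, and the exons had 65 B and 78 D reads. Map3k6 introns had 198, 228, 331 and 96 B reads and 115, 106, 160 and 25 D reads, a D share of 32.2% (log2 ratio -0.98 ± 0.18, adjusted p = 1.79e-06), and 48 of its 57 intronic SNPs had more B reads. DESeq2 did not call it (adjusted p = 0.277), nor did edgeR on genes with at least 10 counts (adjusted p = 0.0768). Dusp7, another MAP kinase phosphatase, had 145 B and 63 D intronic reads (log2 ratio -1.08 ± 0.30, adjusted p = 0.00452) and lost the call without the pool labelled BxD male. Ppp2r1b had 229 and 350 (log2 ratio 0.73 ± 0.20, adjusted p = 0.00418), called by edgeR and not by DESeq2 (adjusted p = 0.0603). Ppp1r12b, a myosin phosphatase subunit, had 388 and 508 (log2 ratio 0.53 ± 0.18, adjusted p = 0.0405), a call lost under DESeq2, with at least 10 counts and without any 1 of 3 pools. Prkar1a had 6, 5, 5 and 6 B reads and none from D at its 1 intronic SNP (adjusted p = 0.000287, and 0.0605 with the block), while its exons had 147 B and 148 D reads.

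Introns were also read for genes whose exons gave B reads alone or B reads and 1 D read. Those of Pde7a (156 B and 159 D reads) and Mapk6 (17 and 26) held both alleles in similar number or more D, while Ppp1r10 had 32 and 12, Pde10a 12 and 5, Ppp2r2d 10 and 1, Ppp2r2a 6 and 3, Mapk11 2 and 0 and Gnaq 1 and 0. None of these introns was called (adjusted p from 0.191 to 0.801), most on few reads, and the other such genes had no intronic read. Ppp2r5a had 73 and 76 intronic reads and the gene listed as Gnal1, whose exons held 25 D reads, 34 and 41.

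**Figure D5:**
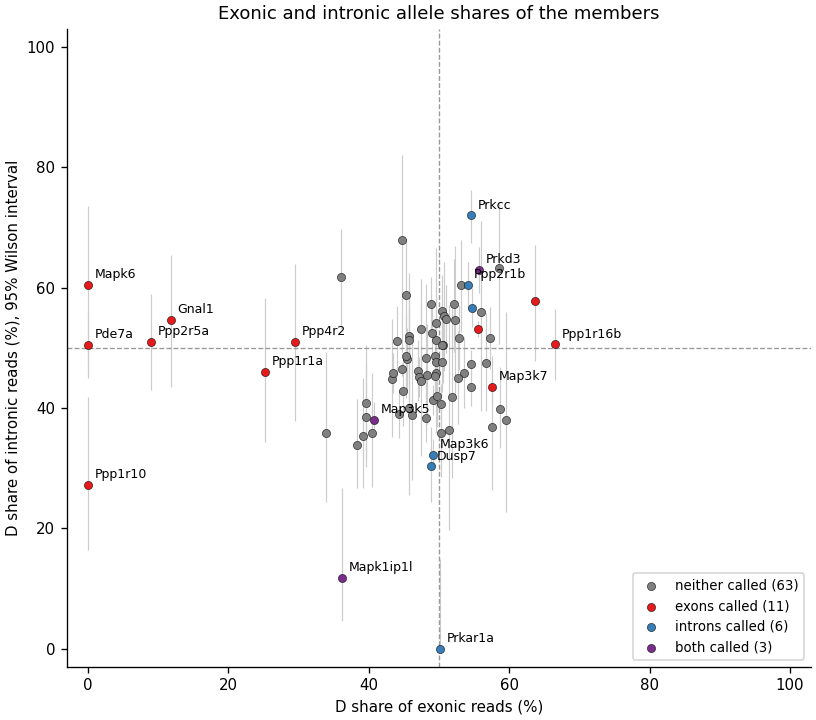
D share of intronic reads with its 95% Wilson interval (y axis, percent) against D share of exonic reads (x axis, percent) for the 83 signalling genes with at least 20 reads of each kind, coloured by call. Mapk6, Pde7a and Ppp2r5a lie at the left with intronic D shares of 60.5%, 50.5% and 51.0%, and Prkar1a, Dusp7, Map3k6 and Prkcc have exonic D shares between 48.8% and 54.5% but intronic ones of 0%, 30.3%, 32.2% and 72.0%.

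No gene of the list was called by parent of origin. Maternal against paternal alleles gave 0 of 126 calls by the labelled cross, where 0% of all genes were called, and 0 of 126 by the cross in the file names, where 0.0501% were. The X-linked and Sgce shares above went with the file names, under which labelled cross is sex. The labelled fit then swaps maternal and paternal alleles in the pair of pools at odds, so its 0 calls say nothing about parent of origin. None had an unadjusted p under 0.05 in edgeR under either identity, and DESeq2, run by the labels, called none. Of all 7990 genes only 38 by the labels and 44 by the file names had one, fewer than that threshold gives by chance. The fit also leaves strain out, so 0 calls do not show that maternal and paternal alleles were equal. The strain difference did not depend on sex past the threshold in any of the 126 genes. The strain by sex term gave 0 calls by the labels, where 0.1% of all genes were called. Of all genes, 0.0375% had a D to B ratio higher in the pools labelled male and 0.0626% in those labelled female. By the file names the term gave 0 calls (0%). Labelled sex is cross by the file names, so under the file names the labelled term compares crosses and not sexes. Again none had an unadjusted p under 0.05 in edgeR, and the lowest was 0.0573 for Gnal1 by the labels. Of all 7990 genes only 71 by the labels and 99 by the file names had one, so this test too had little reach. DESeq2, run by the labels, called none.

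Genes of the same pathways that the symbol rule does not take were read from a separate list of 71, of which 33 were tested. Of these 7 were called, 6 with B higher and 1 with D higher, 21.2% against 17.7% of all genes. Sos1 (17 B and 0 D reads), Rheb (534 and 0), Rap1a (63 and 0), Creb3l2 (2733 and 0) and Cbl (408 and 1) were read almost wholly from B, and Akap10, an anchor of protein kinase A, had 569 B and 92 D reads. Gsk3b, the kinase that Akt inhibits, had 34 B and 68 D reads at 1 SNP (log2 ratio 1.12, adjusted p = 0.036). Deeply read genes of the list were not called, among them Akap1 (5357 and 4820, log2 ratio -0.02) and Slc2a4, the insulin-regulated glucose transporter (2346 and 2027, -0.08).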

How the data were processed

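Per the study's methods the authors mapped the mates of each pair as single reads to mm9 with mrsFAST, allowing up to 3 mismatches, aligned the remaining reads with TopHat (version 1 in the submitters' processing notes, which also name CASAVA), kept uniquely mapped reads and counted B and D bases at known variants. The methods describe masking of D variants in the reference and the supplement leaves this in doubt, and reads with more D bases carry more mismatches to an unmasked reference. The deposited values were whole-number counts of reads per SNP and allele, 1 file per pool, with no normalization and no comparison columns.

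From these counts, repeated positions were dropped and, within an exon of a gene, a SNP was kept only if more than 18 bp from the last one kept. Counts were summed per gene into 4 B and 4 D libraries. edgeR 4.0.16 (quasi-likelihood F test, TMM, R 4.3.3) was fitted across all genes with a counted read, comparing alleles by strain or by parental origin, or the strain effect between sexes, and strain again on intronic sums and on single SNPs, and Benjamini-Hochberg adjustment at 0.05. Only the 126 genes' rows are printed. DESeq2 1.42.0 was an alternative. The fit was tested on simulated data with 200 changed genes. The simulated libraries were drawn independently, without the correlation of B and D within a pool, so this does not check the unpaired fit under that correlation. Tables, intervals (Wilson for shares, exact for ratios, 95%) and figures were made in Python 3.11.15. A count of 0 was given a floor of 3 reads over the 4 pools.

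Pools hold separate animals. B and D libraries of a pool come from the same animals, and their deviations from the allele means correlated at 0.643, 0.225, 0.637 and 0.156 over 5309 genes, so the pool pairs them. The main test leaves the block out, as the study treated allele counts as separate libraries. Samples were grouped by their labels, and 2 whose file names differ were also run under the file name.

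Named with values per pool were called genes with at least 10 reads of both alleles that moved the same way in all pools, listed core genes, the 5 genes with most reads, called genes with fewer reads of one allele, and genes called in introns or by parent or sex. Others were picked after their values were seen. The members and lists were chosen with earlier results of these data known. Alternatives were the tool, the scaling, a minimum count, the SNPs used, the block and leaving out each pool. Genome windows are from mm9 and gene bounds from GENCODE M1, and 749 of the 775 counted SNPs lay inside the gene of the same name. Genes on the X chromosome were left out by rule. Some items are not reported here.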

Additional observations from a re-analysis of the deposited data

Results flagged for a closer look

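In Ppp4r2 the DxB male pool had a D share of 47.1%, apart from 23.4%, 23.4% and 26.7% in the other pools. Of 31 genes examined in this way it was the only one with a pool so far from the rest, and chance gives about 1 in 20. The counts in that pool were 27 B and 24 D reads.

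Ppp1r3f, a glycogen-targeting subunit of phosphatase 1 on chromosome X, lay outside the autosomal rule. It had 16 reads, 5, 3, 5 and 3 per pool, all of them from the B allele. No test of it is given here.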

How the results depend on the processing

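Against 28 calls of B against D, removing SNPs without a read of one allele gave 12 calls (8 with B higher), and removing those where one allele held under 1% of the reads, an alternative chosen after seeing the data, gave 8 (4 with B higher). Both leave fewer genes to test, 109 and 108. Under these settings Ppp1r9b turned to a log2 ratio of 0.097 and 0.092, from the neighbouring position with an identical base in both strains, and Ppp2r5a under the second turned to 0.093. The other planned settings gave 27 to 29 calls without the block, and dropping SNPs shared between genes, also chosen afterwards, gave 28. Leaving out 1 pool gave 22 to 26 calls for B against D, where all genes gave 1049 to 1184 against 1415 with every pool. Calls with D higher fell to 3 without the pool labelled DxB female or the DxB male pool. In introns 7 to 10 were called (all genes 664 to 797, against 943). Of the SNPs 84 to 89 were called (all SNPs 4249 to 4757, against 5363). By parent or sex, both run by the labels, 0 were called.

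Pairing the alleles with the pool as a replicate block gave 38 calls (26 with B higher, 12 with D higher), of which 25 were shared with the unpaired fit. It gained 13 genes: Adra2b, Gnb5, Map2k1, Map2k4, Map3k7ip2, Map4k2, Pde2a, Pik3ap1, Pik3r4, Ppp1r12b, Ppp1r3b, Ppp2r1b and Prkag2. It lost 3: Adra2c, Pde10a and Prkaa2. It gave 7 calls in introns (2 with B higher, all genes 7.89%), 120 SNPs (all SNPs 14.2%) and 0 calls by parent or sex, both run by the labels. DESeq2 gave 7 intron calls and 86 SNPs, where all genes gave 658 and all SNPs 4278. A minimum of 10 counts gave 7 and 95, where all genes gave 802 and all SNPs 5151.

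Of the values of named genes under all settings 716 kept direction and side of the threshold, 49 fell below it, 5 passed it and 3 reversed. Depth limits the genes read at few SNPs: 36 of the 126 had 1 SNP, and 11 had under 20 reads. With 1 pool per cross and sex, the spread between single animals was not measured.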
